A study of Mus musculus with 8 samples.

Results

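The 8 deposited libraries fell into a set of 4 with high and a set of 4 with low levels of a group of inflammatory and metabolic genes, and this division ran across both genotypes. The high set holds control 2, control 3, SmoM2 2 and SmoM2 4, and the low set holds control 1, control 4, SmoM2 1 and SmoM2 3, so all 8 of 8 libraries belong to it. The sets were chosen from the measured values: the levels of Hk2, Usp2, Rel, Bcl3 and Ndrg1, with cytokine genes, selected the members. Every difference between the sets is therefore given as a description, with no p-value.

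The libraries come from YFP+ stromal cells sorted by flow cytometry from digested lungs of adult mice, 4 control and 4 SmoM2. Control mice were Gli2creERT2-tdt:R26RYFP, in which a tamoxifen-inducible Cre made wherever Gli2 is active switches on a yellow fluorescent reporter. SmoM2 mice were Gli2creERT2-tdt:R26RYFP/SmoM2 and carried in addition an activated Smoothened allele, which Cre switches on in the same cells. SmoM2 mice received daily intraperitoneal tamoxifen, 200 mg/kg on each of 5 days. The labels do not say how the controls were dosed, and the inducible Cre is shared by both groups. A library is called here by its group and the number in its column, since the columns do not tell which animal is which.

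Hk2 encodes hexokinase 2, which commits glucose to glycolysis, and Ndrg1 is a stress-responsive gene often used as a readout of low oxygen. Rel and Bcl3 belong to the NF-kB system: Rel is a DNA-binding subunit, and Bcl3 is a nuclear member of the inhibitor family that binds the p50 and p52 subunits. In resting cells NF-kB dimers are held in the cytoplasm by inhibitors of the IkB family; cytokines and other stresses release them, and they then switch on chemokine, adhesion and inhibitor genes. Usp2 is a ubiquitin protease whose RNA follows the circadian clock and glucocorticoids in several tissues. Lung fibroblasts are known to make Il6, Ccl2, Ccl7 and hyaluronan when stimulated.

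Promoters are shown for Rel, Bcl3 and Nfkbie, the NF-kB members with the largest non-overlapping differences, because the NF-kB pathway regulates its own members, and for Hk2, the marker with the largest difference. Each runs 5′ to 3′ from 250 bases before to 50 bases after the RefSeq start of the gene (300 bases, GRCm38.p6). Capitals mark matches to the kappaB consensus in Rel, Bcl3 and Nfkbie, and matches to ACGTG on either strand, the core of the hypoxia response element, in Hk2. In Rel, at chr11:23770920-23771219 (minus strand), 2 overlapping kappaB matches began 91 and 92 bases before the start. In Bcl3, at chr7:19822706-19823005 (minus strand), the single match began 2 bases after it. In Nfkbie, at chr17:45555450-45555749 (plus strand), the single match began 106 bases before it. In Hk2, at chr6:82774405-82774704 (minus strand), 2 ACGTG matches began 52 and 226 bases before the start.
Rel: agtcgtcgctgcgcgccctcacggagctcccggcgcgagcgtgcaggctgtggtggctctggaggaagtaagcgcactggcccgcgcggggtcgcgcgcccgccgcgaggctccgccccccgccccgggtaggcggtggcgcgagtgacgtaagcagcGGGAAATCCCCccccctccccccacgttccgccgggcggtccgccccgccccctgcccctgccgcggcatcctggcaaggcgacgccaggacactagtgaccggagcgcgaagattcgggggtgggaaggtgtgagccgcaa
Bcl3: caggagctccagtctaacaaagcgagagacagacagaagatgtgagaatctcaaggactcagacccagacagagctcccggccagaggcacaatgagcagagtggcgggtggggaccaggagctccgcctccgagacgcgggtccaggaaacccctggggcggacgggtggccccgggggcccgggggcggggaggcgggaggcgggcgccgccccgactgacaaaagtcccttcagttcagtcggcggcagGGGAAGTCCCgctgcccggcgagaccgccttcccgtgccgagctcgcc
Nfkbie: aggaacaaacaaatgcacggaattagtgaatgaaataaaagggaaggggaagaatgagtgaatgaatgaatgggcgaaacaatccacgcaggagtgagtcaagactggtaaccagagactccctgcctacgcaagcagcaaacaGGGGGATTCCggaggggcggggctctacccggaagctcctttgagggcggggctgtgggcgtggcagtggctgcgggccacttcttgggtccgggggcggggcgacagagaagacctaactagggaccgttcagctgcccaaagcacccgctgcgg
Hk2: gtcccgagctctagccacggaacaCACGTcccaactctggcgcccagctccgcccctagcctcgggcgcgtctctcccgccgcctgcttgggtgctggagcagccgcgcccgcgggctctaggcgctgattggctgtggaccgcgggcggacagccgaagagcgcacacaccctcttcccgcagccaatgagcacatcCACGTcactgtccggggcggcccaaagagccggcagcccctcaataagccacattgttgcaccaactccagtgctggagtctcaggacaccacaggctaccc

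The shares of promoters that held these and other motifs are given with those over the whole table, without a test. Both strands were searched, and a match is a description of the letters only. RefSeq windows were found for 136 of the 225 genes that were at least 2-fold higher in the high set without overlap, 166 windows in all. The kappaB consensus lay in 10 of those windows (6.02%), in 5.31% of the 16230 windows of all genes tested and in 4.51% of all 32851 windows. ACGTG lay in 21.1%, 23.6% and 19.6% of the same windows. The AP-1 site TGACTCA lay in 8.43% (14 windows), 4.07% and 5.2%, and the cAMP site TGACGTCA in 3.01%, 2.68% and 1.79%. Among the 80 windows of the 64 matched genes that were lower by the same measure, 1.25% held the kappaB consensus and 7.5% (6 windows) the AP-1 site. For the 55 higher genes averaging 5 CPM or more, 50 windows were found. Of these 4 held the kappaB consensus, 15 ACGTG, 6 the AP-1 site and 4 the cAMP site. For the 13 lower genes at that level, 11 windows were found. Of these 1 held the kappaB consensus, 1 ACGTG, 1 the AP-1 site and 0 the cAMP site. At that level the lower genes thus did not show the rarity of the kappaB consensus seen at all levels, though 11 windows are few. Shares over all tested genes at that level were not computed. No window was found for Ndrg1 or Ccl2.

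Each library held 91.62 to 111.62 M units of estimated count, with 92.76 to 111.62 M in the low and 91.62 to 104.79 M in the high set. Genes above 0 numbered 23881 to 24455 in the low and 23581 to 24801 in the high set, and mitochondrial genes took 1.367% to 1.431% and 1.395% to 1.605% of the units. By their Xist and Y-linked counts, which the labels do not give, each set held 2 male and 2 female libraries, 1 of each sex in each genotype. The division, the genotype and the sex were therefore fully crossed, with 1 library in each of the 8 combinations. Fibroblast markers were abundant in every library, with summed levels of 10105 to 15283 CPM for the alveolar and 30705 to 53079 CPM for the adventitial list. Control 4 and SmoM2 3, the female libraries of the low set, stood apart from the other 6 on the first principal component, which took 34.2% of the variance. Their coordinates were −45.1 and −29.1 against 1.03 to 19.7 in the others. Control 1 and SmoM2 1 lay above the other 6 libraries on the second component, at 19.9 and 24.3. Neither component alone separated the sets. The main list values are therefore also given without control 4 and SmoM2 3, which leaves 2 male libraries in the low set.

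**Figure D1:**
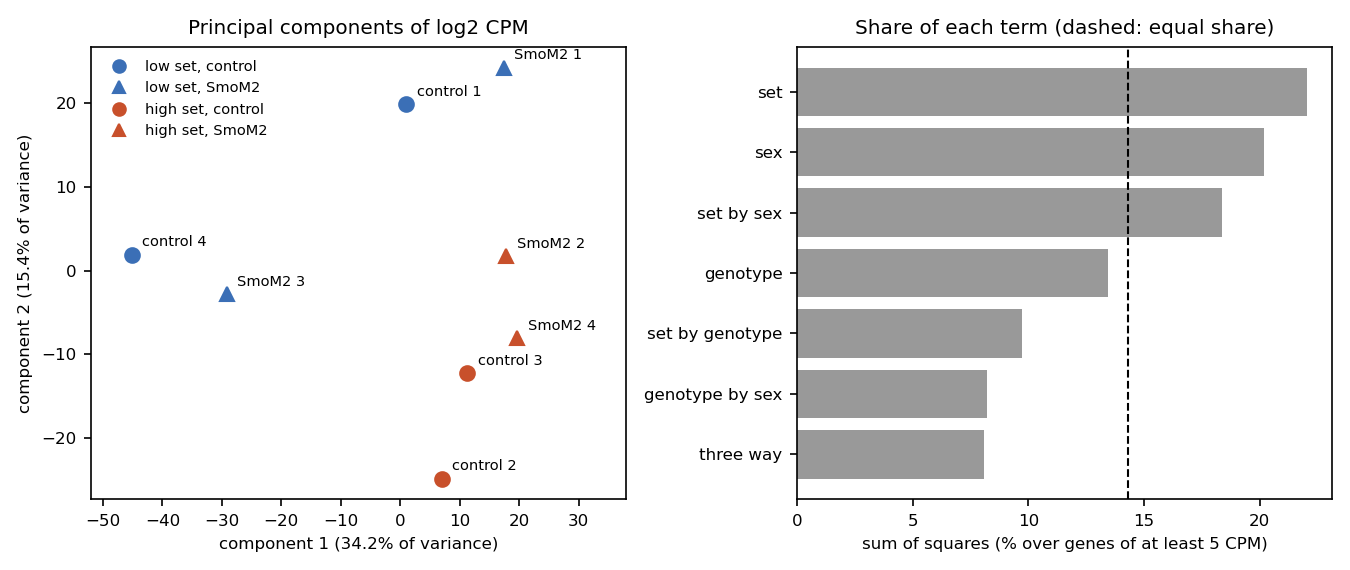
Left, the first and second principal components of log2 CPM, with axes in component units, circles for control and triangles for SmoM2, blue for the low and red for the high set. Control 4 and SmoM2 3 lie far left, and control 1 and SmoM2 1 lie at the top. Right, the percent of the sum of squares that each of 7 orthogonal terms took over genes of at least 5 CPM: set took 22.0%, sex 20.2% and set by sex 18.3%, against an equal share of 14.3% (dashed line) and 13.4% for genotype.

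Over the 11395 genes that averaged 5 CPM or more, the set term took 22.0% of the sum of squares between libraries. Sex took 20.2%, set by sex 18.3% and genotype 13.4%. If the 7 terms of the crossed layout shared it equally, each would take 14.3%. These shares describe the libraries, since the set term was chosen from the same values.

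The 5 markers lay higher in every high library than in any low one. Hk2, on mm10 chromosome 6 from 82725025 to 82774454, stood at 29.4, 25.2, 45.0 and 29.0 CPM in control 1, control 4, SmoM2 1 and SmoM2 3. It stood at 130.2, 109, 90.0 and 102 CPM in control 2, control 3, SmoM2 2 and SmoM2 4. The lowest high library, SmoM2 2, lay well above the highest low one, SmoM2 1. The difference on the log2 scale was 1.75 (SE 0.21), a 3.37-fold higher mean level, with 2.13 in control and 1.41 in SmoM2 libraries.

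Usp2, on chromosome 9 from 44067021 to 44095627, stood at 31.1, 25.6, 29.1 and 30.2 CPM in the low set and at 81.0, 89.8, 63.4 and 88.0 CPM in the high set, each in the library order used for Hk2. The low libraries lay within 6 CPM of each other, so the gap to the high set was wide against the spread. The log2 difference was 1.47 (SE 0.13). Bcl3, on chromosome 7 from 19808462 to 19822770, stood at 33.7, 31.1, 50.3 and 36.1 CPM in the low and at 80.1, 82.9, 84.8 and 95.8 CPM in the high set. SmoM2 1 was again the highest of the low set, and the log2 difference was 1.20 (SE 0.12).

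Rel, on chromosome 11 from 23736847 to 23770970, stood at 29.4, 28.2, 30.0 and 34.9 CPM in the low and at 63.7, 65.5, 52.96 and 57.2 CPM in the high set. Both high SmoM2 libraries lay below both high control libraries, and the log2 difference was 0.97 (SE 0.10), just under 2-fold. Ndrg1, on chromosome 15 from 66929318 to 66969640, stood at 78.6, 74.6, 95.9 and 74.2 CPM in the low and at 138.7, 131.9, 130.6 and 140.1 CPM in the high set. Its log2 difference of 0.75 (SE 0.10) was the smallest of the 5. Without control 4 and SmoM2 3 the differences were 1.53 for Hk2, 1.42 for Usp2, 1.05 for Bcl3, 1.01 for Rel and 0.64 for Ndrg1.

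**Figure D2:**
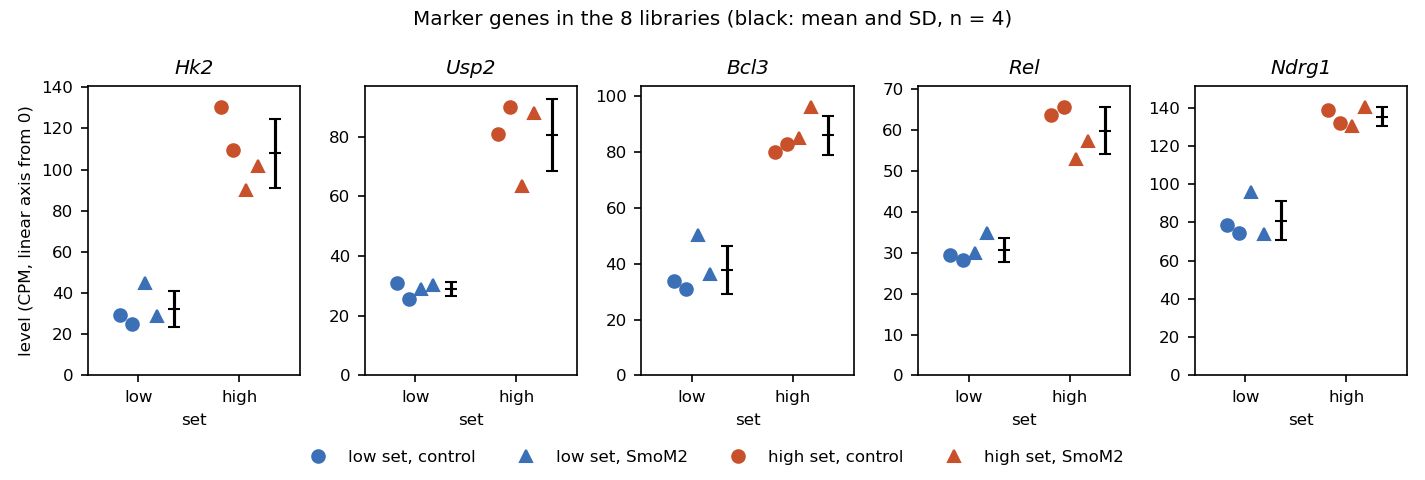
Levels in CPM (linear axes from 0) of the 5 marker genes in the low (blue) and high (red) libraries, circles for control and triangles for SmoM2, with the mean and SD of 4 libraries in black. Every high library lies above every low one for each gene, with the narrowest gap in CPM for Rel (52.96 in SmoM2 2 against 34.9 in SmoM2 3).

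Across the table, 225 of 20162 genes tested were at least 2-fold higher in the high set with no overlap between the sets, or 1.12%, and 109 were lower by the same measure, or 0.541%. Among genes averaging 5 CPM or more, 55 were higher and 13 lower, so most of the separated genes lay under that level. The average was over all 8 libraries, so a gene could reach it through the set where it was higher. At any fold, 836 genes (4.15%) lay higher and 1026 (5.09%) lower without overlap. Without control 4 and SmoM2 3, where fewer libraries must be in order, 9.36% lay higher and 11.1% lower without overlap at any fold. Of the 225 and 109 separated genes, 174 and 56 still passed then. Over the 11395 genes, the differences in control and in SmoM2 libraries correlated with a Pearson r of 0.390 and a Spearman coefficient of 0.422, and over all 20162 genes tested with 0.239 and 0.278. That is a correlation across genes, which are not independent replicates. The sets were chosen from these values in both genotypes, so the correlation may in part follow from that choice.

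The separated genes were rarer than the table as a whole, and the lower ones were shorter. The 225 higher genes had a median of 3481 exonic bases and 1.11 CPM and the 109 lower genes 2400 bases and 0.449 CPM, against 3530 bases and 8.64 CPM over all genes tested. Among genes averaging 5 CPM or more the medians were 4518, 3734 and 4629 bases.

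Among genes averaging 5 CPM or more, the largest separated differences were those of Acta1, Rnd1 and Itpkc. Every low library held under 5 CPM of Acta1 and of Rnd1, so both reached that average only through the high set. Itpkc, which encodes an inositol trisphosphate kinase, stood at 37.4, 28.3, 53.7 and 46.1 CPM in control 1, control 4, SmoM2 1 and SmoM2 3, and at 141.9, 247, 113.9 and 135 CPM in control 2, control 3, SmoM2 2 and SmoM2 4. Control 3 was the highest, and the log2 difference was 1.94 (SE 0.31). Rnd1, a small GTPase that loosens actin fibres, ranged from 1.45 to 2.88 CPM in the low and from 7.07 to 12.6 CPM in the high set (2.17, SE 0.28). Acta1, skeletal muscle actin, ranged from 0.254 to 0.72 CPM in the low and from 1.95 to 28.9 CPM in the high set. SmoM2 2 alone held 28.9 CPM of it, while the other 3 high libraries reached at most 4.98 CPM. Dkk2, a secreted Wnt antagonist, had a log2 difference of 1.74 (SE 0.50), and Gfra1, a receptor subunit for glial cell line-derived neurotrophic factor, one of 1.70 (SE 0.30).

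**Figure D3:**
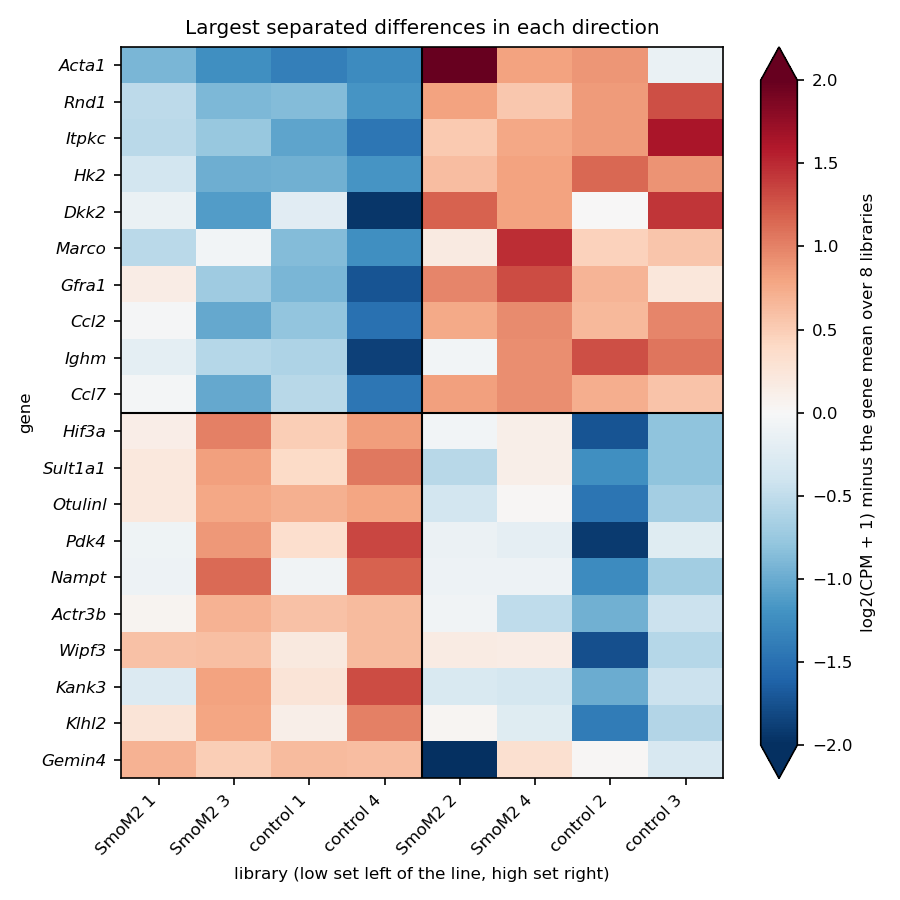
The 10 largest separated differences in each direction among genes of at least 5 CPM, as log2(CPM + 1) minus the gene mean over the 8 libraries (color, clipped at −2 and 2), with the low set left and the high set right of the vertical line. Among the lower genes, control 2 is the deepest blue for 9 of 10, and SmoM2 2 for Gemin4.

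NF-kB subunit and inhibitor genes lay higher more often than lower in the high set. Of 23 members tested, 21 had a higher and 2 a lower mean, 8 lay higher without overlap and 2 were separated at 2-fold. Of all genes tested, 4.15% lay higher without overlap and 1.12% were separated higher. The 8 include Rel and Bcl3 and the 2 include Bcl3, genes whose levels helped to choose the sets. The median log2 difference was 0.30, against −0.01 over all genes, and 0.23 without control 4 and SmoM2 3. Beside Bcl3 and Rel, Nfkbie, which encodes the inhibitor IkB epsilon, stood at 14.7, 11.1, 14.8 and 17.0 CPM in the low libraries and at 37.2, 31.6, 25.9 and 30.1 CPM in the high ones (1.12, SE 0.16). The remaining non-overlapping members had smaller differences: Relb, a subunit of the non-canonical arm, 0.76 (SE 0.17), Nfkb2, the precursor of p52, 0.54 (SE 0.11), Rela, the main activating subunit, 0.36 (SE 0.10), the adaptor Tnip2 0.30 (SE 0.09) and the kinase Chuk 0.22 (SE 0.07).

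The well-known NF-kB feedback genes Nfkbia and Tnfaip3 overlapped between the sets, unlike the members just named. Nfkbia, which encodes IkB alpha, stood at 298, 276, 415 and 312 CPM in the low set and at 546, 814, 543 and 348 CPM in the high set. SmoM2 4, a high library, lay below SmoM2 1, a low one. Tnfaip3, which encodes the brake A20, stood at 279, 205, 320 and 127 CPM in the low and at 219, 436, 579 and 160 CPM in the high set. SmoM2 4 was thus among the lowest of the 8 libraries for Tnfaip3 while it was among the highest for Bcl3. These members beyond the markers and Nfkbie were picked after their values were seen.

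Cytokine levels helped to choose the sets, so the ligands are described without a test. Of 21 interleukin and colony stimulating factor genes tested, 16 had a higher mean in the high set. Without overlap 2 lay higher, Il6 and Tnfsf11 (against 4.15% of all genes). Il6, the main inducer of the acute phase response, stood at 135, 132, 151 and 155 CPM in the low set and at 323, 314, 279 and 158 CPM in the high set. Its sets were kept apart by 157.5 CPM in SmoM2 4 against 154.7 CPM in SmoM2 3, so that SmoM2 4 held Il6 at the level of the low libraries. The log2 difference of Il6 was 0.88 (SE 0.21), with 1.26 in control and 0.45 in SmoM2 libraries. Tnfsf11, the ligand of RANK, was rare and ranged from 0.38 to 0.592 CPM in the low and from 0.822 to 3.33 CPM in the high set.

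The cytokine genes Lif and Cxcl1 both overlapped between the sets. Lif, a cytokine of the Il6 family, stood at 126.6, 45.9, 289 and 96.1 CPM in the low and at 325, 326, 369 and 207 CPM in the high set. SmoM2 1 in the low set lay above SmoM2 4 in the high set. Cxcl1, a neutrophil attractant, showed the same pair in that order, at 207 CPM in SmoM2 1 and 178 CPM in SmoM2 4. Tnf, Il1a, Il1b and Cxcl2 overlapped as well. SmoM2 4 held the highest level of each of them, for instance 41.8 CPM of Tnf against 5.08 to 17.5 CPM in the other 7 libraries.

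The monocyte attractants Ccl2 and Ccl7 were both separated. Ccl2 stood at 21.8, 13.1, 37.7 and 18.3 CPM in the low set and at 60.9, 76.9, 65.8 and 74.9 CPM in the high set. The lowest high library lay well above the highest low one, SmoM2 1, and the log2 difference was 1.66 (SE 0.28). Ccl7, its neighbour on chromosome 11, stood at 19.8, 10.2, 28.7 and 14.0 CPM in the low and at 49.3, 44.5, 53.1 and 57.1 CPM in the high set (1.51, SE 0.27). Ccl11, an eosinophil attractant made by adventitial fibroblasts, ranged from 42.5 to 77.0 CPM in the low and from 85.5 to 197 CPM in the high set (0.97, SE 0.22). Of 21 chemokine genes tested 20 had a higher mean, 4 lay higher without overlap (against 4.15% of all genes) and 3 were separated (against 1.12%). Ccl11 was the one not separated. Cytokine levels helped to choose the sets, so these counts may in part follow from that choice. Cxcl5, which was separated, was listed at 0 in 2 low libraries and reached 2.71 CPM in control 2. The median of the chemokine list was 0.55, and 0.59 without control 4 and SmoM2 3.

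Genes of hyaluronan matrix, adhesion and the acute phase lay higher more often than lower. Of 33 tested, 30 had a higher mean, and the median was 0.50. Without overlap 10 lay higher (against 4.15% of all genes) and none lower (against 5.09%). Has1, a hyaluronan synthase, stood at 201, 126.6, 341 and 127.6 CPM in the low set and at 502, 509, 661 and 434 CPM in the high set (1.43, SE 0.32). Tnfaip6, which crosslinks hyaluronan in inflamed matrix, stood at 135, 155, 247 and 134 CPM in the low and at 373, 435, 501 and 431 CPM in the high set (1.38, SE 0.19). SmoM2 1 was the highest low library for both genes, and neither set overlapped the other. Icam1, a leukocyte adhesion receptor, had a log2 difference of 0.91 (SE 0.15), the zinc importer Slc39a14 one of 0.96 (SE 0.16), and C3, the central complement component, one of 0.41 (SE 0.15). Without control 4 and SmoM2 3, 16 of the 33 lay higher without overlap (against 9.36% of all genes) and the median was 0.53.

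Cytokine receptors and signalling genes of the Il6 family did not stand out. Their median was 0.08 over 19 genes tested. Without overlap 2 lay higher (against 4.15% of all genes), Cish at 0.67 (SE 0.14) and Jak1 at 0.15 (SE 0.07). Interferon stimulated genes had a median of −0.11, with 8 of 25 higher in mean. Without overlap 1 lay lower (against 5.09% of all genes), Cmpk2 at −0.51 (SE 0.17). This list turned without control 4 and SmoM2 3, to a median of 0.24 with 22 of 25 higher. SmoM2 3 held the highest summed level of the interferon list, 809 CPM, against 451 to 564 CPM in the other 7 libraries.

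Among immediate early genes, 20 of 26 had a higher mean in the high set. Nr4a3, an orphan nuclear receptor induced by many stimuli, stood at 360, 316, 491 and 376 CPM in the low set and at 940, 1105, 773 and 711 CPM in the high set (1.19, SE 0.19). The Fos-related genes Fosl1 (1.04, SE 0.25) and Fosl2 (0.66, SE 0.14) also lay higher without overlap. Fos itself stood at 5453, 5098, 5913 and 5246 CPM in the low set and at 4802, 6481, 5187 and 2054 CPM in the high set. SmoM2 4 held less Fos than any other library, and the same held for Jun, Egr1 and Ier2. For Egr1 it held 2098 CPM against 3693 to 5650 CPM in the other 7 libraries. Over the 26 members tested the median was 0.60 in control and −0.13 in SmoM2 libraries. Of them 3 lay higher and none lower without overlap, against 4.15% and 5.09% of all genes.

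Among 20 heat shock chaperone genes, 17 had a higher mean and 3 lay higher without overlap, where 4.15% of all genes did. Hspa1b, an inducible Hsp70 gene, stood at 417, 393, 693 and 554 CPM in the low set and at 1466, 1747, 1188 and 857 CPM in the high set (1.35, SE 0.28). Its near-identical copy Hspa1a followed it but overlapped, with SmoM2 1 at 699.9 and SmoM2 4 at 690.3 CPM, and counts of such copies can be split between them by the authors' counting. Hsph1 (0.66, SE 0.19) and Hsp90aa1 (0.58, SE 0.19) completed the 3. Among 24 integrated stress response genes 12 had a higher and 12 a lower mean, with a median of −0.004, and Slc3a2, an amino acid transporter subunit, alone lay higher without overlap (0.42, SE 0.09).

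Of the ERK feedback genes, 15 of 18 had a higher mean, with Dusp14 (1.03, SE 0.33), Dusp10 (0.77, SE 0.13), Spry2 (0.48, SE 0.09) and Spred3 (0.48, SE 0.15) higher and the ERK phosphatase gene Dusp6 lower (−0.34, SE 0.10) without overlap. The prostaglandin genes that lay higher without overlap were Ptger3, a prostaglandin E receptor (1.29, SE 0.16), Ptgir, the prostacyclin receptor (0.82, SE 0.28), and Ptges, a prostaglandin E synthase (0.64, SE 0.17). The inducible cyclooxygenase Ptgs2 overlapped, at 310 to 938 CPM in the low and 435 to 1113 CPM in the high set. The proteoglycan proteases Adamts4 (1.19, SE 0.20) and Adamts1 (0.59, SE 0.14) and the matrix proteins Tnc (1.04, SE 0.24) and Fn1 (0.58, SE 0.15) lay higher without overlap. Col1a1, the main fibrillar collagen, overlapped, at 2990 to 7031 CPM in the low and 4261 to 7101 CPM in the high set. As a background to these lists, 4.15% of all genes lay higher and 5.09% lower without overlap.

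Of 22 glycolysis genes tested 20 had a higher mean, with a list median of 0.15. Without overlap 5 lay higher (against 4.15% of all genes), and Hk2 alone was separated. Hk2, counted in both, helped to choose the sets. Slc16a3, a lactate exporter, stood at 9.30, 10.5, 15.7 and 17.4 CPM in the low set and at 18.1, 29.6, 25.7 and 18.0 CPM in the high set (0.84, SE 0.24), with a narrow gap between SmoM2 3 and SmoM2 4. Eno2 (0.52, SE 0.19), Pfkp (0.26, SE 0.12) and Ldha, lactate dehydrogenase A (0.16, SE 0.08), were the others. Ndrg1, which helped to choose the sets, is a hypoxia response gene. That list of 25 genes had a median of 0.01, with 13 higher and 12 lower in mean. Beside Ndrg1, the oxygen sensor Egln3 (0.69, SE 0.18) and Hif1a (0.45, SE 0.10) lay higher, and Hif3a and Ankrd37 lower, without overlap. Of all genes, 4.15% lay higher and 5.09% lower without overlap.

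Usp2, which helped to choose the sets, is a clock-controlled gene. With Usp2 counted, 17 of 23 clock genes had a higher mean, 6 of them without overlap (against 4.15% of all genes). These were Usp2, the kinase gene Wee1 (0.77, SE 0.16), the repressors Cry2 (0.40, SE 0.08) and Per1 (0.35, SE 0.09), and the casein kinases Csnk1d (0.26, SE 0.07) and Csnk1e (0.24, SE 0.08). Other clock genes, such as Nr1d1 and Dbp, overlapped between the sets. Nr1d1, the repressor REV-ERB alpha, stood at 228, 302, 179.7 and 176 CPM in the low set and at 139.98, 55.0, 79.7 and 298 CPM in the high set. Dbp, a clock output gene, ranged from 1.92 to 9.66 CPM in the low and from 1.67 to 21.6 CPM in the high set. SmoM2 4 held the highest Dbp and Per3, and the lowest Arntl, of the 8 libraries. The time of day at which each lung was taken is not stated in these labels, and its part was not tested.

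Among the lower genes, several respond to glucocorticoids or fasting in other tissues. Pdk4, a kinase that keeps pyruvate out of the citric acid cycle, stood at 147, 295, 108.7 and 213 CPM in control 1, control 4, SmoM2 1 and SmoM2 3, and at 29.9, 97.5, 106.9 and 102.5 CPM in control 2, control 3, SmoM2 2 and SmoM2 4. Control 2 lay far below the rest, and SmoM2 1 lay less than 2 CPM above SmoM2 2. The log2 difference was −1.21 (SE 0.47), and −0.67 without control 4 and SmoM2 3. Hif3a, an inhibitory relative of Hif1a, stood at 23.7, 30.5, 18.3 and 34.3 CPM in the low and at 4.34, 9.15, 16.0 and 18.2 CPM in the high set (−1.31, SE 0.39). Here the sets nearly touched, at 18.26 CPM in SmoM2 1 and 18.19 CPM in SmoM2 4. Sult1a1, a sulfotransferase, ranged from 27.8 to 50.8 CPM in the low and from 9.65 to 26.0 CPM in the high set (−1.30, SE 0.32).

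The glucocorticoid response list as a whole lay near the table's median. Of 21 members tested 13 had a lower mean, with a median of −0.15. Without overlap 3 lay lower, the 3 just named (against 5.09% of all genes), and Per1 lay higher. Fkbp5, a chaperone gene that glucocorticoids induce, stood at 357, 472, 519.9 and 438 CPM in the low set and at 26.0, 127, 333 and 359 CPM in the high set. Zbtb16, another such gene, stood at 26.6 CPM in control 2 and at 212 to 550 CPM in the other 7 libraries. Control 2 was also the lowest library for Angptl4, at 49.6 CPM, and for Tsc22d3, at 184 CPM.

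Nampt, which recycles nicotinamide to NAD, and Kank3, a cytoskeletal adaptor gene, had their highest levels in control 4 and SmoM2 3. Nampt stood at 131, 313, 128.2 and 303 CPM in the low and at 57.2, 84.9, 127.9 and 127.6 CPM in the high set. SmoM2 1 and SmoM2 2 differed by under 1 CPM, so the sets nearly touched. Without control 4 and SmoM2 3 the log2 difference of Nampt moved from −1.20 to −0.47 and that of Kank3 from −1.13 to −0.52. Otulinl kept a difference of −1.17 against −1.29 with all 8 libraries.

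**Figure D4:**
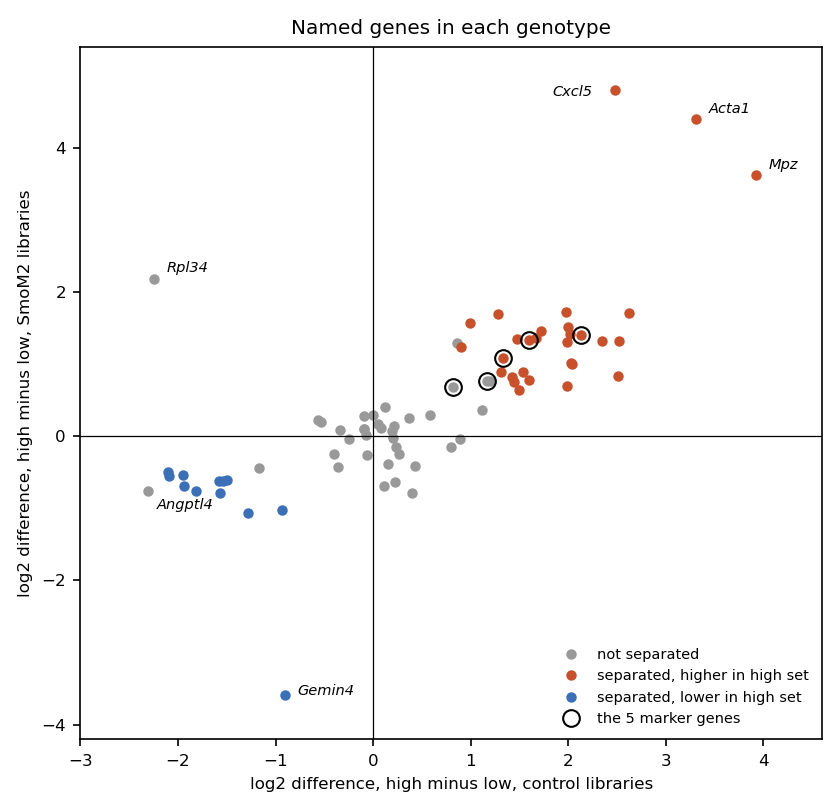
The log2 difference between high and low libraries among control (horizontal) and among SmoM2 libraries (vertical) for the named genes other than Xist and Ddx3y, red and blue for genes separated higher and lower, grey for the rest, with black rings around the 5 markers. All separated genes lie in the upper right or lower left, as separation requires, and Rpl34 lies in the upper left at −2.25 and 2.19.

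A list of fatty acid oxidation and PPAR target genes, put together after the values were seen, lay lower. Of 21 tested 16 had a lower mean, and the median was −0.24. Without overlap 6 lay lower (against 5.09% of all genes) and none higher (against 4.15%). Of the 6, 3 were separated (against 0.541% of all genes). Among the 6, but under 2-fold, were Ehhadh, a peroxisomal oxidation enzyme (−0.92, SE 0.18), the thioesterase Acot2 (−0.67, SE 0.13) and the thiolase Acaa2 (−0.47, SE 0.09). Hadha, Hadhb and Acadvl, other enzymes of fatty acid oxidation, had differences between −0.05 and 0.02.

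A second list put together after the values were seen, of actin cytoskeleton and focal adhesion genes, lay higher. Of 23 tested 21 had a higher mean, with a median of 0.55, and 0.44 without control 4 and SmoM2 3. Without overlap 10 lay higher (against 4.15% of all genes), and 5 were separated (against 1.12%). Beside Acta1 and Rnd1 these were Itgb3, a vitronectin receptor subunit (1.21, SE 0.23), the filamin gene Flnc (1.13, SE 0.25) and the actin bundler Fscn1 (1.07, SE 0.37). Flnc stood at 79.5, 46.5, 129 and 81.7 CPM in the low and at 187, 165, 161 and 199.8 CPM in the high set. Srf, the factor that drives many of these genes, overlapped, with SmoM2 1 at 191 and SmoM2 4 at 179.9 CPM. Of 18 cholesterol synthesis genes, another such list, 15 had a higher mean and 3 lay higher without overlap, among them Hmgcs1 (0.82, SE 0.21) and Msmo1 (0.44, SE 0.14).

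Markers of some other cell types differed between the sets. Summed epithelial markers reached 1702 CPM in control 4 and 1113 CPM in SmoM2 3, against 324 to 528 CPM in the other 6 libraries, and 12 of 17 had a lower mean in the high set, with a median of −0.76. Sftpc, surfactant protein C of alveolar type 2 cells, stood at 162, 992, 213 and 564 CPM in the low and at 187, 207, 129 and 86.4 CPM in the high set. The epithelial median was −0.08 without these 2 libraries. In bulk samples, fewer cells of a type and less RNA per cell cannot be told apart. The 12 endothelial markers had a median of −0.57 and summed to 124 to 268 CPM in the low and 158 to 195 CPM in the high set, and the median was 0.63 without the 2 libraries.

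All 19 macrophage and neutrophil markers tested had a higher mean in the high set, with a median of 0.74. Without control 4 and SmoM2 3 all 19 still did, with a median of 0.64. Their summed level, however, ranged from 422 to 713 CPM in the low and from 413 to 1454 CPM in the high set. SmoM2 4 held the 1454 CPM, and the median was 0.11 in control against 1.33 in SmoM2 libraries. Marco, a macrophage scavenger receptor, was the member without overlap, from 1.53 to 4.66 CPM in the low and from 5.70 to 15.4 CPM in the high set. Of 20 lymphocyte markers, 16 had a higher and 4 a lower mean, and 5 lay higher without overlap (against 4.15% of all genes). The lymphocyte median was −0.24 in control and 0.95 in SmoM2 libraries. Ms4a1, which encodes CD20, ranged from 0.486 to 0.681 CPM in the low and from 1.62 to 3.44 CPM in the high set. Ighm, the heavy chain of IgM, stood at 24.0, 9.46, 32.5 and 24.9 CPM in the low and at 92.5, 79.7, 36.0 and 72.3 CPM in the high set. Cd3e, of T cells, did not follow the sets, with its highest levels in SmoM2 4 (13.8 CPM) and control 1 (8.34 CPM) against 1.31 to 3.68 CPM in the others. The part of these cells in the cytokine, chemokine and acute phase differences was not tested.

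The fibroblast subsets depended on control 4 and SmoM2 3. All 16 adventitial fibroblast markers had a higher mean in the high set, with a median of 0.30, and 14 of 16 alveolar fibroblast markers a lower one, with a median of −0.11. Without the 2 libraries, 8 adventitial markers had a higher and 8 a lower mean (median −0.01), and 11 of 16 alveolar markers had a higher mean (median 0.11). Sfrp4, a secreted Wnt modulator of adventitial cells, kept apart with and without them. It ranged from 14.3 to 32.5 CPM in the low and from 37.1 to 75.5 CPM in the high set (1.43, SE 0.27, and 1.05 without them). Pdgfra, the common fibroblast receptor, overlapped, at 1763 to 2059 CPM in the low and 1345 to 2112 CPM in the high set. The smooth muscle list had a median of 0.12 with no member without overlap.

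**Figure D5:**
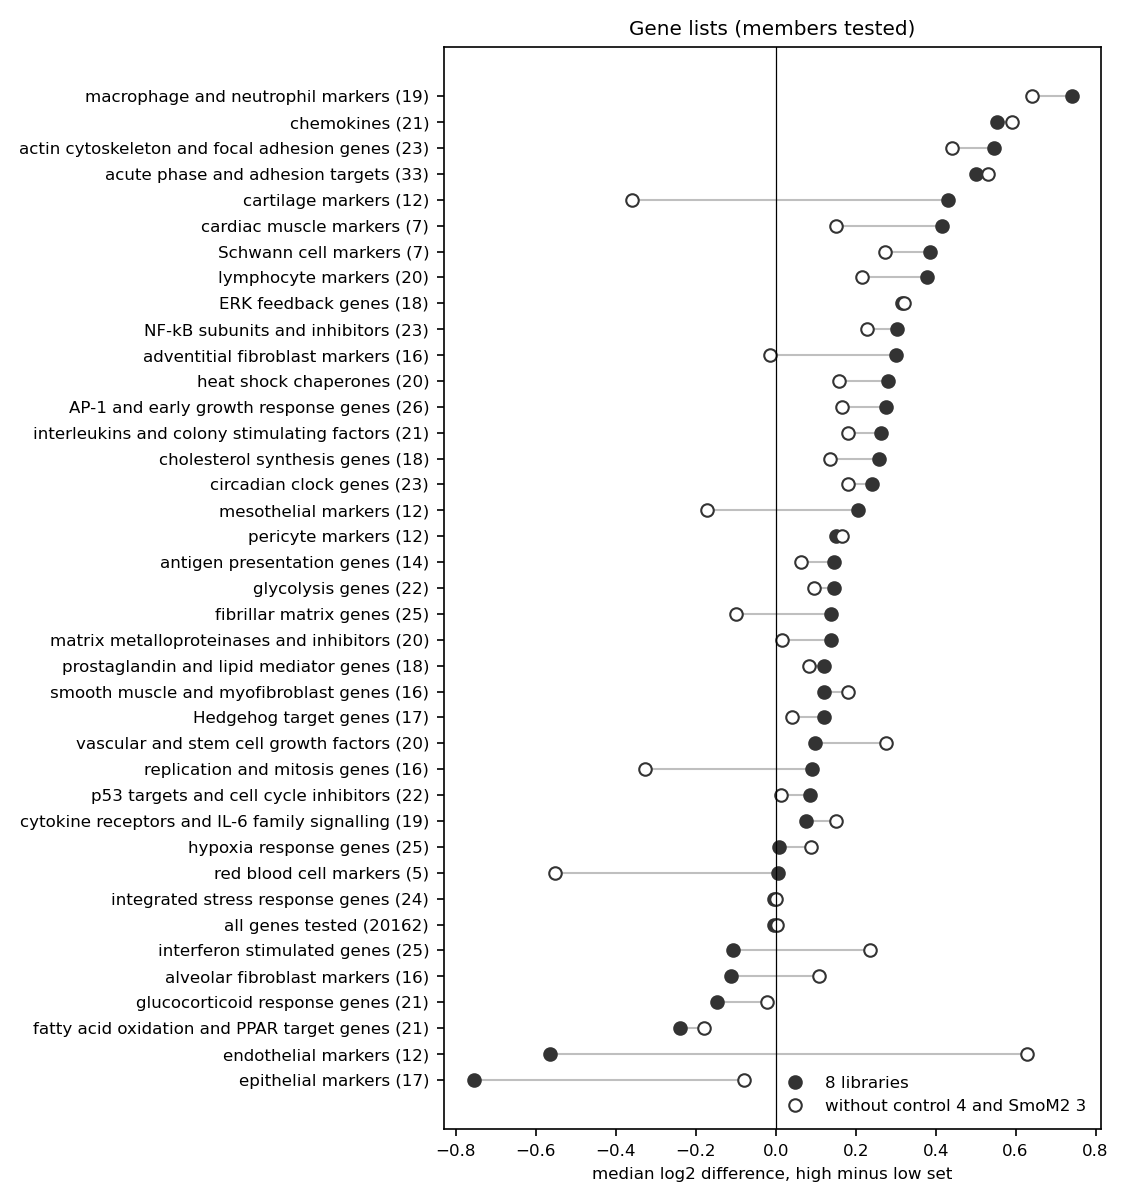
Median log2 difference, high minus low set, of each gene list, with the number of members tested in parentheses, for all 8 libraries (filled) and without control 4 and SmoM2 3 (open). Chemokines, acute phase and adhesion targets and actin genes stay near 0.5 in both. Macrophage and neutrophil markers also stay high, at 0.74 and 0.64. Epithelial, endothelial, adventitial and interferon lists move across or toward 0.

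Hedgehog genes were spread over both sets. Of 17 targets tested 11 had a higher mean, with a median of 0.12. Without overlap 2 lay higher (against 4.15% of all genes), Foxf1, a lung mesenchyme factor (0.46, SE 0.10), and Gli2 itself (0.23, SE 0.09). Gli2 drives the Cre of both genotypes and stood at 35.8 to 43.2 CPM in the low and 44.7 to 48.8 CPM in the high set. Gli1, the target that reports pathway activity, stood at 82.8, 62.7, 122 and 89.7 CPM in the low and at 136.5, 115, 116.5 and 77.0 CPM in the high set. The highest library was control 2 and the lowest control 4, both control, and the sets overlapped.

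The genotype was not used to form the sets, so it was tested with the set as a term. The set was chosen from the same values, so the spread behind these p-values was estimated after a data-chosen term. With edgeR's quasi-likelihood test, 0 of 20162 genes passed a Benjamini-Hochberg adjusted p under 0.05 (0%). An unadjusted p under 0.05 was reached by 978, 514 higher and 464 lower in SmoM2. The 978 are less than 0.05 of the genes tested, the share that would pass with no effect. DESeq2 called 118 genes, 67 higher and 51 lower. The smallest adjusted p by edgeR was 0.196, shared by Aspn and 7 other genes, and Aspn, which encodes asporin, had a mean of 246 CPM over the controls and of 467 CPM over the SmoM2 libraries. Gli1 had means of 99.3 CPM (control) and 101 CPM (SmoM2) (log2 difference 0.08, SE 0.24, edgeR adjusted p = 0.999).

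Whether the difference between the sets differed between genotypes was tested with an interaction term. Its p-values carry the same limit, since the sets were found from these values. By edgeR's quasi-likelihood test 1 gene of 20162 passed (0.00496%), Rpl34, and 905 had an unadjusted p under 0.05, while DESeq2 called 79. The 905, too, are less than 0.05 of the genes tested. Rpl34, a ribosomal protein gene, stood at 70.5, 88.9, 15.5 and 15.1 CPM in control 1, control 4, SmoM2 1 and SmoM2 3 and at 17.5, 15.9, 67.5 and 72.2 CPM in control 2, control 3, SmoM2 2 and SmoM2 4 (interaction 4.44 on the log2 scale, SE 0.20, adjusted p = 0.00392). Its copy Rpl34-ps1 was the mirror image, at 66.5, 91.4, 134 and 130.5 CPM and at 135, 130.9, 63.6 and 75.2 CPM in the same order. The libraries low in Rpl34 were the 4 highest in its copy, and the authors' counting could split reads between such copies, so both are uncertain. With control 2 or any 1 of the 4 SmoM2 libraries left out, the interaction called 0 genes. The markers formed the sets, so no test of the interaction is given for them.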

How the data were processed

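The authors deposited a table of expected (estimated) counts, 1 row per Ensembl gene and 1 column per library. Tools named in the submitters' processing notes are HISAT, StringTie, DESeq and FastQC, with the build mm10 and no versions. The deposited expected counts were whole numbers, and the most frequent value above 0 was 5 units, so 1 fragment was taken to add 5 units, an assumption. A count of 0 then allows up to 3 fragments, or 15 units, for counting error alone. The authors' own comparison table was not used. Of 49671 identifiers, 99.31% matched a symbol, and positions came from GENCODE M21 and promoters from RefSeq (GRCm38.p6), which held windows for 59 of the 80 named genes. Chi-square per degree of freedom was 21.0 to 96.3 over the 28 pairs of libraries, so none was taken for a copy. Each title carries its own animal number, and the p-values thus reflect variation among mice.

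edgeR 4.0.16 in R 4.3.3 fitted genotype and set to the counts of 20162 genes kept by filterByExpr, with TMM factors and robust quasi-likelihood dispersion. CPM values use TMM library sizes, and standard errors are the absolute log2 difference over the square root of F. A gene counted as separated if the 4 high libraries all lay on 1 side of the 4 low ones and the fitted fold was at least 2. Sets were compared without a test, and genotype and its interaction with set were tested. Alternatives were DESeq2 1.42.0, its size factors, no filter, sex as a term, a fold of 1.5, each genotype alone and leaving out libraries. The rule for named genes took the 5 markers, the 10 largest separated differences each way at a mean of at least 5 CPM, up to 4 separated or the 2 most abundant members of each list, called genes, and Gli1, Ptch1 and Hhip. A few members of the lists are not reported here by name. Other genes were chosen after their values were seen. The members, the 37 lists and the tests were chosen with earlier results of these data known, and 3 lists were added after these values were seen. The genotype test was tried on simulated counts of 19548 genes: out of 50 genes at each fold, edgeR found 4 at 1.5-fold, 26 at 2-fold, 41 at 3-fold and 42 at 4-fold, with 7 false calls.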

Additional observations from a re-analysis of the deposited data

Results flagged for a closer look

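In 9 of 160 groups of 4 libraries formed by the 80 named genes and the 2 sets, 1 library lay far from the other 3 by Dixon's criterion, which chance alone passes in about 1 of 20 groups. In the high set, Acta1 in SmoM2 2 stood at 28.9 CPM (others 1.95 to 4.98), Pdk4 in control 2 at 29.9 CPM (others 97.5 to 106.9), Tnfsf11 in control 2 at 3.33 CPM (others 0.822 to 1.20) and Ptch1 in control 2 at 256 CPM (others 111.7 to 135). In the low set, Wipf3 in control 1 stood at 6.47 CPM (others 8.76 to 9.15), Ms4a1 in control 1 at 0.486 CPM (others 0.676 to 0.681), Gbp2 in SmoM2 3 at 113.9 CPM (others 74.3 to 80.5), Hhip in SmoM2 3 at 682 CPM (others 327 to 342) and Ptch1 in SmoM2 3 at 229 CPM (others 149.6 to 159). Control 2 and SmoM2 3 account for 6 of the 9. The difference between the sets differed between genotypes for Rpl34, by 4.44 on the log2 scale (edgeR adjusted p = 0.00392).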

How the results depend on the processing

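The 334 separated genes (225 higher, 109 lower) became 717 (422 and 295) at a fold of at least 1.5, 1100 (602 and 498) in control libraries alone, 878 (636 and 242) in SmoM2 libraries alone and 665 (475 and 190) without control 4 and SmoM2 3, a setting chosen after seeing the data. Without the filter 178 genes were lower. Fewer libraries make non-overlap easier to reach, so these counts are not comparable as strengths. Leaving out 1 library at a time (leave-one-out) gave 408 to 790 separated genes, 282 to 479 higher and 126 to 311 lower, with the most without SmoM2 1. For genotype, DESeq2 called 118 genes where edgeR called 0, and leaving out 1 library gave 0 to 1, the 1 without SmoM2 4. For the interaction, DESeq2 called 79 where edgeR called 1, and leaving out 1 library gave 0 to 3; the count was 0 without control 2, SmoM2 1, SmoM2 2, SmoM2 3 or SmoM2 4, 2 without control 4 and 3 without control 1. The cause of the DESeq2 difference was not tested. Of 717 alternative values of the 80 named genes, 655 moved by less than the spread between libraries, 62 by more, and 41 changed sign, none of them for a difference of at least 2-fold. Of 640 values with 1 library left out, 630 moved by less than that spread, 10 by more, and 59 changed sign, again none of at least 2-fold. No paired analysis was possible because the column numbers 1 to 4 cannot be tied to animals and the titles give each animal a number of its own. Genes under 1 CPM rest on few fragments.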
